A study of Mus musculus with 6 samples.

Results

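Chemokine ligands are the genes described here: all those whose symbol in the array annotation is Ccl, Cxcl, Cx3cl or Xcl followed by a digit. The rule found 33 of the 18193 genes measured, and each was read from the probe set of its symbol with the highest mean over the 6 arrays. The cells were CT26, an established cell line from a colon carcinoma of a BALB/c mouse. Control cells, 3 samples, were transfected with the empty hairpin vector pU6-m3. The shSep15 cells, also 3 samples, carried the same vector with a short hairpin RNA against Sep15, a selenoprotein of the endoplasmic reticulum now named Selenof. Whether these cells were clones or pools is not given, and only 1 hairpin was used. The samples of a construct are described as different mRNA samples without mention of separate cultures, so p-values measure only the spread between these samples, which may be technical. RNA was read on 1 Affymetrix Mouse430_2 array per sample, and values are log2 RMA signals, so the number of arrays limits the precision.

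Chemokines are small secreted proteins, in a few cases held at the cell surface by a stalk, that guide leukocytes through G protein-coupled receptors. Their names follow the spacing of conserved cysteines, as in the CC, CXC, CX3C and XC groups. Inflammatory members are induced by NF-κB, AP-1 and interferon-activated factors, whereas homeostatic members are made steadily in particular tissues. In tumours, ligands released by the cancer cells are among the signals that draw neutrophils, monocytes, T cells and natural killer cells.

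Sequences are shown for the hairpin's target and for promoters of inducible members, in which known motifs were searched. The hairpin was built on this 19-nucleotide stretch of the Sep15 cDNA, as the labels give it.
Sep15 hairpin target: acagaagagttccatttaa
Promoters came from the RefSeq table of build GRCm38.p6, from 250 bases before to 50 after each gene's start, and 23 of the 33 ligands had at least 1, 26 promoters in all. Ccl5 and Ccl2 are among the ligands without one, so their promoters were not searched. The 26 promoters were searched on both strands for 3 motifs. These were an NF-κB motif of 10 bases (GGG, any 3 bases, T, any base, CC), an interferon response motif of 10 bases (TTTC, any 2 bases, TTTC) and the AP-1 motif TGANTCA. Capitals mark the matches, and overlapping matches run together. The promoter of Cxcl10 is shown because its transcript was the ligand that differed most among the shSep15 arrays. It lies at chr5:92348840-92349139 on the minus strand.
Cxcl10 promoter: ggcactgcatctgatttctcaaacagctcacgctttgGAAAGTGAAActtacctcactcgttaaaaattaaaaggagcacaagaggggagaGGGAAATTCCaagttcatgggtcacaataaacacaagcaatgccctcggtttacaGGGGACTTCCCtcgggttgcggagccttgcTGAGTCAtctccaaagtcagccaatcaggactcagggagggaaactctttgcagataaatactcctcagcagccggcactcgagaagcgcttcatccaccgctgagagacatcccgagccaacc
It held all 3 motifs: the interferon response motif 213 to 204 bases before the start, NF-κB motifs from 159 and from 104 bases before it, and the AP-1 motif from 74 bases before it.

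Cxcl1, Cxcl2 and Cxcl3 encode neutrophil-attracting ligands of the receptor Cxcr2, and their promoters are shown because all 3 held the NF-κB motif while only Cxcl1 was above background on the arrays. The stretches below run from 120 to 41 bases before each start, on the plus strand of chromosome 5, with NF-κB motifs in capitals. Those of Cxcl1, Cxcl2 and Cxcl3 lie at chr5:90891125-90891204, chr5:90903779-90903858 and chr5:90785981-90786060.
Cxcl1: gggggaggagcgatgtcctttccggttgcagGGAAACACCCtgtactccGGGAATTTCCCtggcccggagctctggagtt
Cxcl2: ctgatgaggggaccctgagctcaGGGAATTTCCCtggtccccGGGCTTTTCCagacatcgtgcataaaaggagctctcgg
Cxcl3: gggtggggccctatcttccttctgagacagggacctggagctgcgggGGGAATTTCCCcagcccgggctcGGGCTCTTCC
Each held the run GGGAATTTCC within the stretch. Among all 26 ligand promoters 11 held the NF-κB motif, 2 the interferon response motif (Cxcl10 and Cxcl14) and 5 the AP-1 motif. Of the 32851 promoters of this length in the table, 17.4% held the NF-κB motif, 3.44% the interferon response motif and 7.81% the AP-1 motif. A match is a run of letters, not a shown binding site.

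Selenof read 12.41, 12.44 and 12.35 on control arrays 1, 2 and 3 and 9.34, 9.59 and 9.50 on shSep15 arrays 1, 2 and 3, which left 13.2% of the control signal. Some readings stood apart before any ligand was considered. Many interferon-stimulated genes were highest on shSep15 array 3. Among 14 listed members above background, 4, 8 and 14 exceeded their control mean on shSep15 arrays 1, 2 and 3, and the median departure from the mean of the controls was −0.27, 0.03 and 1.33. The 1 member of that list past the test, Ifit2, was higher on all 3 shSep15 arrays (9.51, 9.48 and 9.74, against 9.12, 8.87 and 8.93 in controls; limma adjusted p = 0.00521). On control array 3 a control probe set for small-subunit ribosomal RNA read 8.31, against 6.01 to 6.53 on the other arrays. Of 10 markers of colon epithelium, 5 lay above background in either group, among them Epcam (7.59 in control cells) and Krt20 (8.28), whereas Cdh1 (4.03), Cdx2 (5.60) and Vil1 (4.90) did not. Of the 10, 3 fell: Krt18 (−2.16), Krt20 (−2.13) and Lgals4 (limma adjusted p = 0.00217). They are 30% of the list beside 25.0% of all genes, and 60% of its members above background beside 39.2% of such genes. Krt18 went from 6.65 to 4.48 and Lgals4 from 6.85 to 5.84, both across the background level, so neither size is exact. The pan-leukocyte marker Ptprc read 4.01 to 4.61 over the 6 arrays, under the background level.

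Most chemokine ligands gave no signal above the background level used here, and the only ligand past the test was Ccl5, which fell. The background level, 6.02 on the log2 scale, was set from 78 probe sets of olfactory and vomeronasal receptor genes, as the 95th percentile of their mean signals. In control or shSep15 cells 13 of the 33 ligands had a group mean above it, against 61.1% of all genes, and 9 of the 33 were above it on all 6 arrays. At the stricter 99th percentile, 7.53, there were 5: Cxcl10, Cxcl1, Ccl5, Cxcl16 and Ccl25. At the looser 90th percentile, 5.58, there were 17 of the 33, so whether most ligands lay under the level depends on the percentile. Probe sets differ in their own background, so a reading near 6.02 does not settle whether the gene is expressed.

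**Figure D1:**
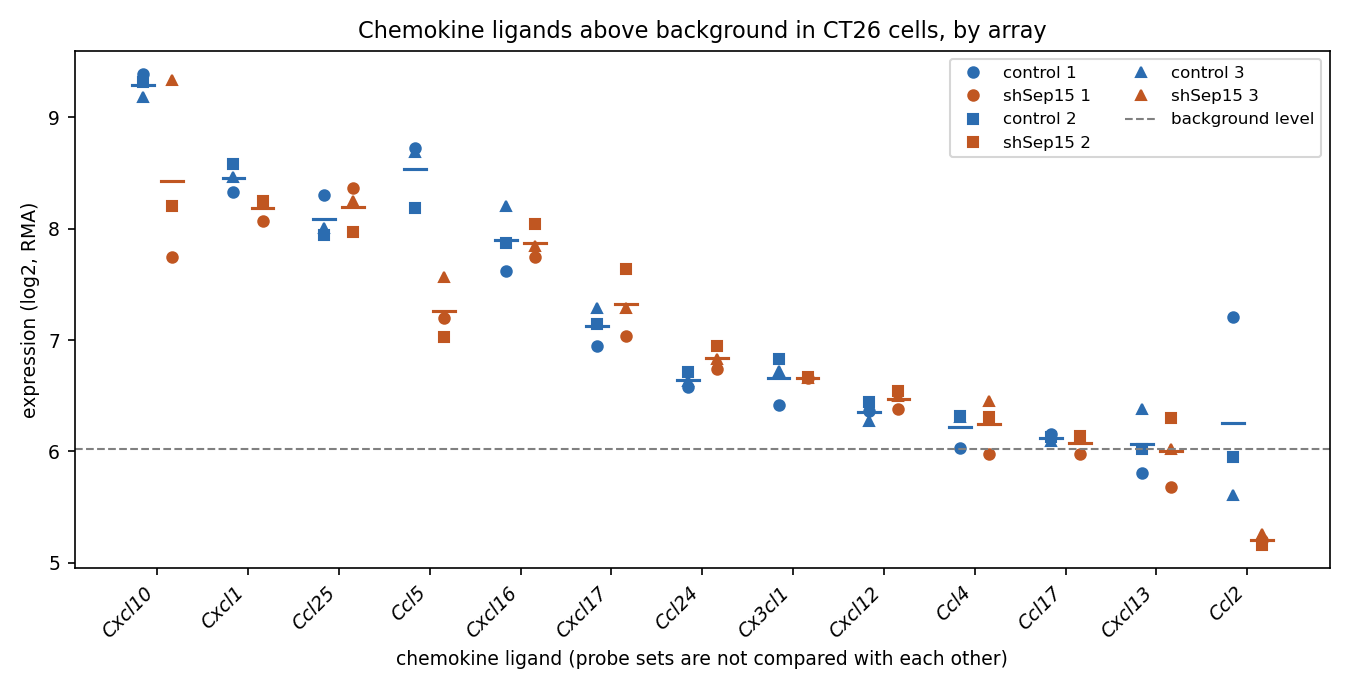
Log2 RMA signal (vertical axis) of the 13 ligands above background, with 1 point per array, control in blue and shSep15 in orange, bars for group means and a dashed line for the background level of 6.02. The groups do not overlap for Ccl5, Cxcl1, Ccl24 and Ccl2, and of these only Ccl5 was past the test. Cxcl10 is low on shSep15 arrays 1 and 2 only, and Ccl2 is high on control array 1.

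Between control and shSep15 cells, 0 ligands rose and 1 fell by limma with Benjamini-Hochberg adjustment over 45037 probe sets. At an unadjusted p under 0.05, 0 were higher and 5 lower: Ccl5, Ccl2, Cxcl10, Cxcl1 and Cxcl2; at that p 17.3% of all genes were higher and 17.3% lower. After adjustment 25.0% of all 18193 genes passed, 12.2% higher and 12.8% lower. Among genes above background 39.2% passed, and among the 13 ligands above background 1 did. The median log2 difference, shSep15 minus control, was −0.04 over the 33 ligands and 0.0067 over all genes. The groups did not overlap for 8 ligands, 6 of them lower, while 38.1% of all genes had groups that did not overlap. Above background this held for 4 of the 13 ligands and for 55.2% of genes.

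**Figure D2:**
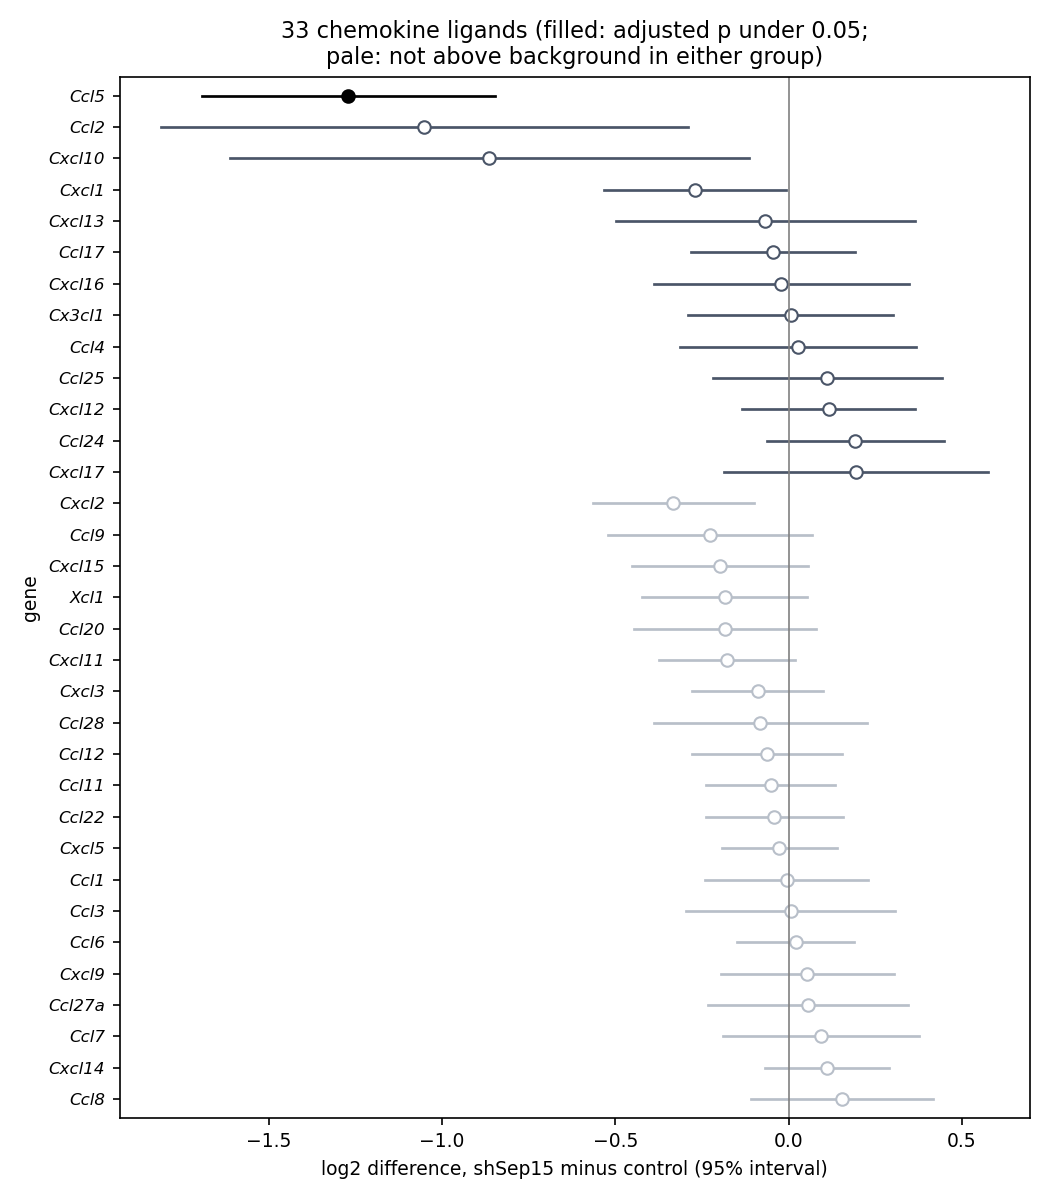
Log2 difference, shSep15 minus control, with its 95% interval from limma for the 33 ligands (1 per line); the filled point passed the adjusted threshold of 0.05 and pale points were not above background in either group. Ccl5, at −1.27, is the only filled point, and the intervals of Ccl2 and Cxcl10 are the widest.

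Ccl5, known as RANTES, is an inflammatory CC ligand that attracts T cells, monocytes and eosinophils. It read 8.72, 8.19 and 8.69 on control arrays 1, 2 and 3 and 7.20, 7.03 and 7.57 on shSep15 arrays 1, 2 and 3. All 3 shSep15 arrays lay below all 3 control arrays. The means were 8.53 ± 0.30 (SD, n = 3) in control and 7.26 ± 0.28 (SD, n = 3) in shSep15 cells, a log2 difference of −1.27 (SE 0.19, limma adjusted p = 0.00121) that left 41.5% of the control signal. In bulk RNA, fewer cells making a transcript and less of it per cell cannot be told apart. Ccl5 was also past the threshold when any 1 array was left out, with differences of −1.44 to −1.15 over the alternatives. On shSep15 array 3, where many interferon-stimulated genes were high, Ccl5 at 7.57 stayed under every control reading.

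Cxcl10 is the interferon-inducible ligand of the receptor Cxcr3, which activated T cells and natural killer cells carry. It read 9.39, 9.32 and 9.18 on the control arrays and 7.75, 8.21 and 9.34 on shSep15 arrays 1, 2 and 3. The first 2 shSep15 arrays lay well below every control array and the third lay within the control range, so the groups overlapped. The difference was −0.86 (SE 0.33, limma adjusted p = 0.113) with all arrays, and its 95% interval ran from −1.61 to −0.12. Without shSep15 replicate 3 it was −1.32 (SE 0.16, limma adjusted p = 0.00194), and without shSep15 replicate 1 it was −0.52 (limma adjusted p = 0.322). Among the interferon-stimulated genes, Usp18, a deubiquitinase of that response, read 6.76, 7.58 and 10.69 on shSep15 arrays 1, 2 and 3, and Oasl2 read 5.74, 6.12 and 9.41. Both rose in order over the 3 shSep15 arrays, as Cxcl10 did. So did the other listed members above background, except Ifit2, Ifit3 (6.15, 6.05 and 7.61) and Mx2, which were lowest on array 2. On shSep15 arrays 1 and 2 Oasl2, Stat2, Ifit1, Ifih1, Bst2 and Ifit3 lay below every control array, as Cxcl10 did. The other listed members above background, Usp18 among them, did not. Whether the interferon-stimulated signal of array 3 had a part in the Cxcl10 reading was not tested. The other Cxcr3 ligands, Cxcl9 and Cxcl11, lay under the background level in both groups, at 5.31 and 5.21 in control cells.

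**Figure D3:**
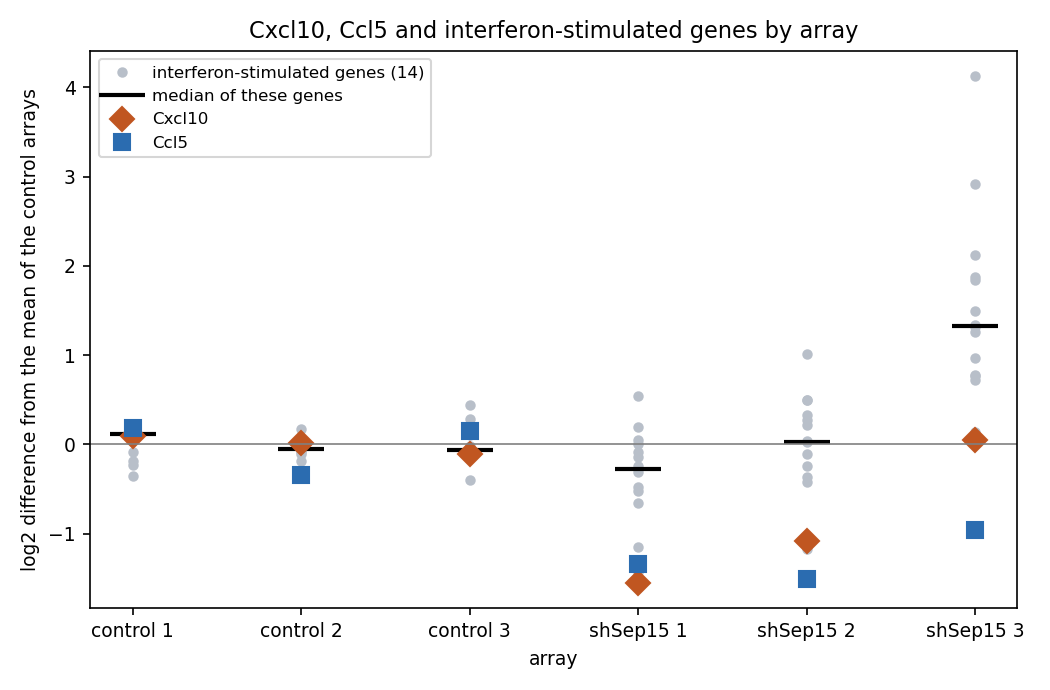
Log2 difference from the control mean on each array (horizontal axis) for Cxcl10 (diamonds), Ccl5 (squares) and the 14 interferon-stimulated genes above background (grey points, median as a bar). The median of the grey points is 1.33 on shSep15 array 3, where Cxcl10 returns to the control level and Ccl5 does not.

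Ccl2, known as MCP-1, attracts monocytes through Ccr2. It read 7.21, 5.95 and 5.61 on control arrays 1, 2 and 3 and 5.20, 5.16 and 5.26 on the shSep15 arrays. The groups did not overlap, but only control array 1 exceeded the background level, so the size of the difference is not exact. It came to −1.05 (SE 0.34, limma adjusted p = 0.0595) and missed the threshold. Without control replicate 1 the difference was smaller, −0.58, and past the threshold (limma adjusted p = 0.0230), with both groups then under the background level, and without control replicate 3 it was −1.37 (limma adjusted p = 0.0208). With values under the background level raised to it the difference was −0.39 (limma adjusted p = 0.851).

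Among neutrophil-attracting CXC ligands, Cxcl1 was above background in both groups and Cxcl2, Cxcl3, Cxcl5 and Cxcl15 were not. Cxcl1 read 8.33, 8.58 and 8.46 on the control arrays and 8.07, 8.25 and 8.24 on the shSep15 arrays. The groups did not overlap, but the difference of −0.27 (SE 0.12, limma adjusted p = 0.161) did not pass the test. The 2 other Cxcl1 probe sets had differences of −0.34 and −0.15 (limma adjusted p = 0.134 and 0.699). Cxcl2, whose promoter holds the same GGGAATTTCC run, had means of 4.64 and 4.31, and its difference of −0.33 (limma adjusted p = 0.0527) lay within signal not above background. Cxcl3 read 3.77 in control and 3.68 in shSep15 cells.

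Ligands made with a membrane stalk showed no call. Cxcl16, a transmembrane ligand of Cxcr6 that also takes up oxidised lipoprotein, read 7.62, 7.87 and 8.20 on control and 7.75, 8.04 and 7.84 on shSep15 arrays. The groups overlapped fully, with a difference of −0.02 and a 95% interval from −0.39 to 0.35 (limma adjusted p = 0.957). Cx3cl1, fractalkine, read 6.42, 6.83 and 6.72 on control and 6.66, 6.67 and 6.66 on shSep15 arrays, with a 95% interval of −0.29 to 0.30. Its 3 other probe sets lay under the background level. The intervals leave room for changes of up to about these sizes in either direction.

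Homeostatic and mucosal ligands above background were also not called. Ccl25, a ligand of thymus and small intestine that acts on Ccr9, read 8.31, 7.95 and 8.01 on control and 8.37, 7.97 and 8.25 on shSep15 arrays. Its difference was 0.11 (SE 0.15, limma adjusted p = 0.696), and its second probe set, at 7.30 in control cells, gave −0.03. Cxcl17, a mucosal CXC protein, read 6.95, 7.14 and 7.29 on control and 7.03, 7.64 and 7.29 on shSep15 arrays, a difference of 0.19 (SE 0.17, limma adjusted p = 0.528). Arrays of both groups were mixed for both genes. Cxcl12, the ligand of Cxcr4, read 6.36, 6.45 and 6.27 against 6.38, 6.54 and 6.50, and its 2 other probe sets were under the background level. Cxcl13, which attracts B cells, was above background in control cells only, with a mean of 6.07 and a difference of −0.07 (95% interval −0.50 to 0.36).

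The CC ligands near the background level were not past the test. Ccl24, an eosinophil-attracting ligand of Ccr3, read 6.58, 6.72 and 6.64 on control and 6.74, 6.94 and 6.83 on shSep15 arrays. All 3 shSep15 readings were higher, but the difference of 0.19 (SE 0.11, limma adjusted p = 0.321) did not pass the test. Ccl4, a macrophage inflammatory protein, had means of 6.22 and 6.25, and Ccl17, a ligand of Ccr4, had means of 6.12 and 6.08. Just under the level in control cells lay Ccl9 and Ccl20, both 6.02 after rounding, and Ccl1, with differences of −0.23, −0.18 and −0.0063. The dimmer probe set of Ccl9 was lower by 0.39 (limma adjusted p = 0.0152), from 4.74, which is under the background level.

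The 20 ligands not above background in either group had control means from 3.77 to 6.02 and differences from −0.33 to 0.15, none past the threshold (lowest limma adjusted p = 0.0527). They include Ccl3, Ccl6, Ccl7, Ccl8, Ccl11, Ccl12, Ccl22, Ccl27a, Ccl28, Cxcl14 and Xcl1. A further 4 probe sets carry several symbols, among them Ccl19, Ccl21 and Ccl27 copies, and were not assigned to a gene. All 4 lay under the background level, with means from 4.91 to 5.86. Pf4 and Ppbp, platelet chemokines under other symbols, read 4.57 and 4.40 in control cells.

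Many ligand genes stand side by side, and 32 of the 33 could be placed in the RefSeq gene order. Ccl5, above background in both groups, is followed by Ccl9, Ccl6, Ccl3 and Ccl4 as direct coding neighbours, of which only Ccl4 had a mean above 6.02. Ccl2 is followed by Ccl7, Ccl11, Ccl12, Ccl8 and Ccl1, none above background. Cxcl1 lies between Cxcl15 and Cxcl2, both under the level. Cx3cl1 lies between Ccl22, under the level, and Ccl17, just above it. On the probe sets used, Ccl5 was the only member of its run of neighbours past the test. The dimmer probe set of Ccl9, under the background level, was also lower (limma adjusted p = 0.0152).

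Of 21 receptors measured, 4 were above background and 1, Ccr1, was past the test, which is 4.76% of the list beside 25.0% of all genes. Ccr1, a receptor for Ccl5 and other inflammatory CC ligands, read 6.08, 6.86 and 6.23 on control arrays and 4.98, 4.90 and 4.79 on shSep15 arrays. The groups did not overlap, and the difference was −1.50 (SE 0.19, limma adjusted p = 0.000474). Its shSep15 mean of 4.89 was under the background level, so the size is not exact, and with values under that level raised to it the difference was −0.37 (limma adjusted p = 0.516). With the mean of its probe sets it was −0.84 and past the test (limma adjusted p = 0.00133). No receptor was higher by limma, and 1 was at an unadjusted p under 0.05. Ccr2 (7.40 in control and 7.53 in shSep15 cells), Cxcr3 (6.16 and 6.17) and the atypical receptor Ackr1 (6.30 and 6.21) were above background without a call.

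The receptors for the other ligands above background were near or under the level. Cxcr2, for Cxcl1, read 4.74 in control cells and Cxcr6, for Cxcl16, 4.52. Cx3cr1, for Cx3cl1, read 4.91 and Ccr9, for Ccl25, 4.61. Cxcr4 and Ackr3, for Cxcl12, read 4.03 and 4.29, and Cxcr5, for Cxcl13, read 4.14. Ccr3, for Ccl24, read 4.32 and Ccr4, for Ccl17, 4.98. None of these 9 was past the test.

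Genes that act in chemokine induction, some as inhibitors, fell more often than they rose. Of 37 measured factors, inhibitors, cytokines and receptors, 11 fell and 1 rose, and the median difference was −0.20, beside 0.0067 over all genes. The count mixes inducers with inhibitors such as Nfkbib, which fell, and Tnfaip3, which rose, so it gives no direction of induction. The 12 past the test are 32.4% of the list, beside 25.0% of all genes. All 12 are among the 33 members above background, 36.4% of these beside 39.2% of genes above background. The NF-κB subunit Relb fell by 1.33 on the log2 scale, from 9.14 ± 0.13 to 7.81 ± 0.27 (SD, n = 3 each; limma adjusted p = 0.000293). The factor Cebpb fell by 1.32, from 11.72, and the NF-κB inhibitor Nfkbib by 1.25, from 10.28. The interleukin 1 receptor Il1r1 fell by 1.21, from 9.84, and the AP-1 subunit Fos by 1.15, from 7.08 to 5.94, which is under the background level, so this size is not exact. With the mean of a gene's probe sets Nfkbib gave −0.70 and Il1r1 −0.65, both past the test (limma adjusted p = 0.000627 and 0.000503). On the brightest probe sets the limma adjusted p-values of these 4 genes ran up to 0.00196.

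The next members were chosen outside the naming rule, with their values known. The adaptor Myd88 fell by 0.88 and interferon beta, Ifnb1, by 0.77, the latter from 6.47 to 5.70, across the background level. The kinase Ikbkb fell by 0.49 and the NF-κB subunit Rela by 0.32 (limma adjusted p = 0.00150 and 0.0128). Tnfaip3, a feedback inhibitor of NF-κB, was the 1 member that rose, by 0.71 (SE 0.12, limma adjusted p = 0.00317). The cytokines Tnf (6.36 in control and 6.22 in shSep15 cells) and Il1b (6.50 and 6.72) were not past the test.

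**Figure D4:**
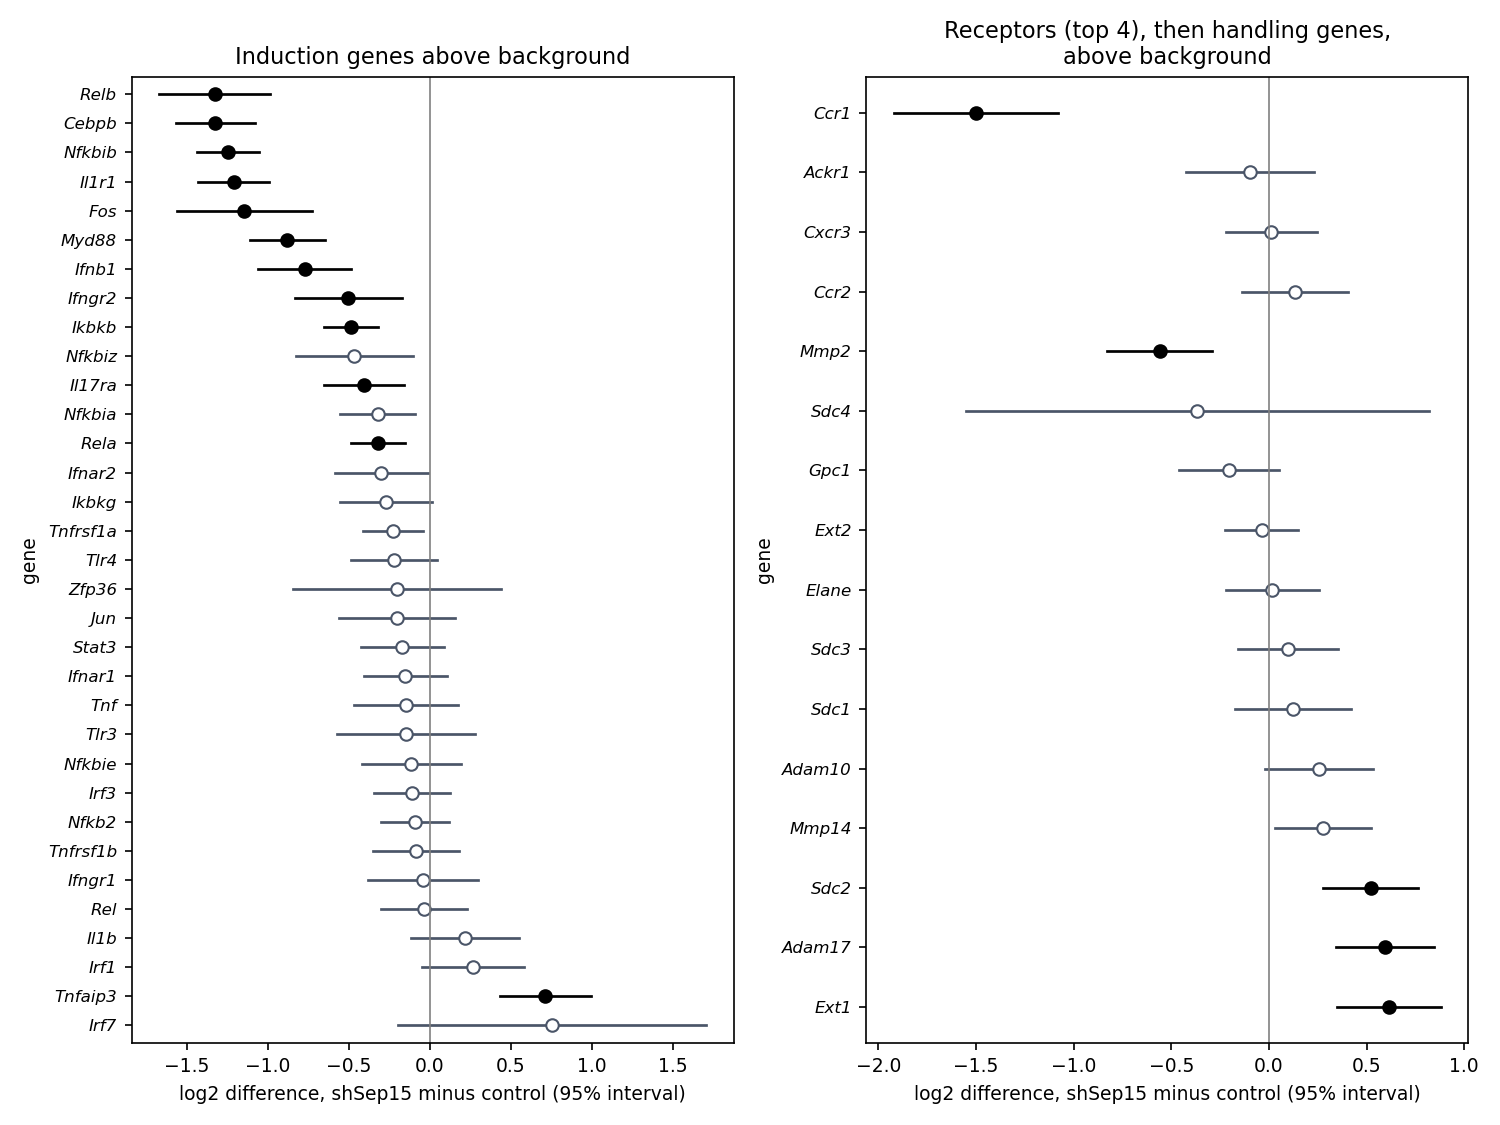
Log2 difference, shSep15 minus control, with its 95% interval for induction genes above background (left) and for 4 receptors followed by handling genes above background (right); filled points passed the adjusted threshold of 0.05. Relb, Cebpb, Nfkbib, Il1r1 and Fos lie farthest to the left, and Tnfaip3 is the only filled point to the right among the induction genes.

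Of 20 measured genes that trim, shed or hold chemokines, 3 rose and 2 fell. The 5 are 25% of the list, the same share as the 25.0% of all genes. Adam17, a protease that releases Cx3cl1 and other membrane proteins, rose by 0.59 (SE 0.11, limma adjusted p = 0.00445), from 8.38 ± 0.14 to 8.97 ± 0.03 (SD, n = 3 each). Its relative Adam10, which sheds Cxcl16 and Cx3cl1, differed by 0.26 without a call (limma adjusted p = 0.214). The heparan sulfate polymerase Ext1 rose by 0.62 (0.37 with the mean of its probe sets, limma adjusted p = 0.0150) and the heparan sulfate carrier Sdc2 by 0.52. The collagenase Mmp13 was lower by 1.83 on its probe set, but under the background level in both groups, and Mmp2, a gelatinase that trims several chemokines, fell by 0.56 from 6.08 to 5.52, across the background level. With values under that level raised to it Mmp2 gave −0.08 (limma adjusted p = 0.343) and Mmp13 no difference.

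Leukocyte transcripts were read beside the ligands, since leukocytes make Ccl5 and carry Ccr1. Of 17 markers measured, 7 were above background in either group, and 4 fell and 0 rose, 23.5% of the list beside 25.0% of all genes. Differences were negative for 9 markers and positive for 8. The mean of the list ran from 5.77 to 5.93 over control arrays and from 5.67 to 5.77 over shSep15 arrays. Of the monocyte markers, Cd68 (−1.48), Cd14 (−0.73) and Lyz2 (−0.47) fell with Ccl5 and Ccr1 (limma adjusted p = 0.000297, 0.00402 and 0.0166). The mean of Cd68 crossed the background level, so its size is not exact. Itgam (−0.37) also fell but lay under that level. Csf1r (0.09), likewise a monocyte marker, did not fall. With Cd3e (0.13), Cd4 (0.08) and Cd8a (0.12) it makes up the other 4 above background, none past the test. Ptprc, which all leukocytes carry, was under the background level on every array. Of 5 endothelial markers 1 fell (20% of the list), and of 6 fibroblast markers 3 rose and 2 fell (83.3%). The part of these transcripts in the readings of Ccl5 and Ccr1 was not tested.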

How the data were processed

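RNA of 6 CT26 samples was measured on Affymetrix Mouse430_2 arrays. Per the submitters' processing notes, the deposited log2 values were made by the authors with RMA (background correction, normalization between arrays and probe set summary), whose version is not stated in the sources used here. RMA gives no detection call and compresses differences of dim probe sets.

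Groups came from the sample titles. The table lists 45101 probe sets, from which 64 array controls were removed. Symbols came from the platform annotation, 34945 probe sets having 1 symbol, 932 several and 9160 none, and were updated by gene identifier through RefSeq GRCm38.p6, which held 34741 of the first. The test used limma 3.58.1 (lmFit on every probe set, eBayes with an intensity trend, two-sided, group as the only term) in R 4.3.3. It was adjusted over 45037 probe sets at a threshold of 0.05. The fit was also run on simulated data whose spread was unrelated to signal, so that run did not test the intensity trend. A gene is above background when either group mean exceeds 6.02.

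The named genes are the ligands above background or past the threshold, the 3 ligands just under the background level, up to 5 called members of each pathway list with the largest differences, and the receptors of the named ligands. The members and lists were chosen with earlier results of these data known. Alternatives were the trend, a replicate block, a filter or floor on dim values, scaling, probe set averaging, the background percentile and leaving out each array. No 2 arrays held identical values (0 pairs).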

Additional observations from a re-analysis of the deposited data

How the results depend on the processing

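The fall of Ccl5 kept its direction and its call in all 13 alternatives, with differences from −1.44 to −1.15 and limma adjusted p from 0.000345 to 0.0247. The count of ligands that fell, 1 as reported, was 2 with arrays shifted to one median (Ccl5 and Cxcl2), 3 with quantile normalization applied again (also Ccl2), and 4 with the mean of a gene's probe sets (also Ccl9). It was 1 to 3 when single arrays were left out: Ccl2 and Cxcl2 were added without control 1, Ccl2 without control 3 and Cxcl10 without shSep15 3. The repeat numbers in the titles did not pair the arrays (deviations of same-numbered arrays correlated at 0.38, −0.15 and −0.02). With them as a replicate block 3 ligands fell (Ccl2, Ccl5 and Cxcl2) and 2 induction genes rose in place of 1. With the 99th percentile as background level 5 ligands were above it in place of 13, and with the 90th 17. The count of receptors that fell, 1 as reported (Ccr1), was 0 with values raised to the background level. It was also 0 with the filter on dim probe sets, but that filter removed the Ccr1 probe set, so Ccr1 was not tested there. Mmp2 and Mmp13 also lost their calls with values raised to that level.

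Small differences that never passed the threshold changed sign. Cxcl16 (−0.02) came to 0.0067 with quantile normalization, 0.031 with probe set means and −0.161 to 0.13 with single arrays left out, and Cx3cl1 (0.0057) came to −0.0023 with shifted medians and −0.11 to 0.092 with single arrays left out. Under the same omissions Ccl4 (0.03) ran from −0.0765 to 0.1625, Ccl17 (−0.05) from −0.0742 to 0.0068 and Cxcl13 (−0.07) from −0.2175 to 0.0925. Cxcl13 came to 0.10 with probe set means. The cause was not tested.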
